A study of Drosophila melanogaster with 4 samples.

Results

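The homeotic genes of Drosophila melanogaster lie in 2 complexes on chromosome arm 3R, and RNA polymerase II (Pol II) was mapped across both of them by chromatin immunoprecipitation and sequencing (ChIP-seq). The bithorax complex, taken as 3R 12480000 to 12800000 on FlyBase release 5 (320 kb), holds Ubx, abd-A and Abd-B. The Antennapedia complex, taken as 3R 2480000 to 2830000 (350 kb), holds lab, pb, Dfd, Scr and Antp. Members were the regions listed by the authors as enriched that overlap either window. There were 19 of 7517 regions in ChIP replicate 1, 14 of 6487 in ChIP replicate 2 and 23 of 8273 in the list for the replicate set. All libraries came from nuclei of wild-type Oregon-R (Oregon-R-modENCODE) larvae of instar 3, with no mutant, transgene or treatment, as 2 ChIP replicates and 2 inputs (chromatin without immunoprecipitation). The antibody is named in the labels as RNA Pol II from abcam. The larvae were homogenized as a whole, so a region can come from few cells with much Pol II or from many cells with little, and these cannot be told apart.

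Homeotic genes encode homeodomain transcription factors that give each body segment its identity, and their order along the chromosome follows the order of the segments they specify. Each gene works in some segments and is held silent elsewhere by Polycomb group proteins, which bind response elements in long stretches of regulatory DNA around the genes. In larvae these genes are known to be active in parts of the nervous system and of the imaginal discs. Among the members, lab, pb, Dfd and Scr act in the head and the front of the thorax, and Antp, known for turning antennae into legs when misexpressed, acts in the thorax. Ubx sets the identity of the segment that carries the halteres and of the front of the abdomen, abd-A that of the middle abdominal segments, and Abd-B that of the rear abdomen and the genitalia.

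Both complexes were mostly empty, with narrow Pol II regions far apart. In the bithorax complex, enriched regions held 4.94% (replicate 1) and 3.50% (replicate 2) of the bases, 4.22% ± 1.02 on average (SD, n = 2). In the Antennapedia complex they held 7.34% and 6.12%, on average 6.73% ± 0.87 (SD, n = 2). The rest of 3R was covered to 20.3% and 17.9% in these replicates, on average 19.1% ± 1.6 (SD, n = 2). In each replicate, then, both complexes lay below the rest of the arm by more than the difference between the replicates. Bases inside regions of both replicates made up 3.44% of the bithorax complex (11.0 kb), 5.37% of the Antennapedia complex (18.8 kb) and 16.4% of the rest of 3R. A base outside all regions is one where no enrichment was listed. No source used here gives the threshold of the calling, so such a base can still carry Pol II below it.

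**Figure D1:**
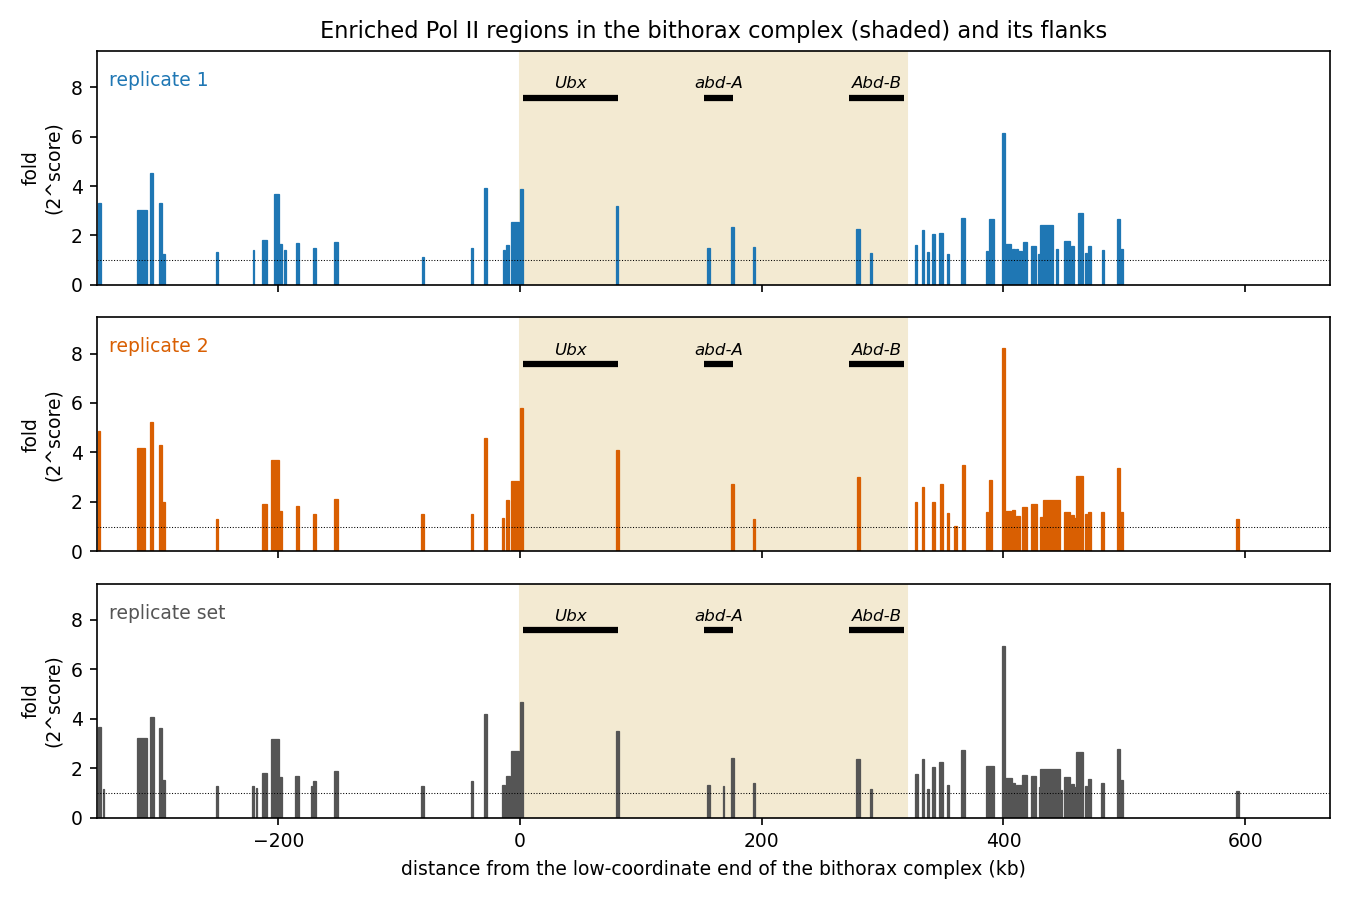
Enriched regions of replicate 1, replicate 2 and the replicate set (top to bottom) across the bithorax complex (shaded) and the 350 kb on each side; the x axis gives kb from the low-coordinate end of the complex, bar width the width of the region, bar height its fold (2 raised to the score) on a linear axis from 0, and black lines the spans of Ubx, abd-A and Abd-B. Inside the shaded window the bars stand alone, with empty stretches of 83.3, 76.5 and 73.3 kb between them. The flanks hold dense groups but also long empty stretches, such as 498.7 to 592.6 kb on the x axis.

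Each region carries 1 score, a log2 value that was recovered from the values as a ratio of 2 whole numbers (read as ChIP over input reads) plus a constant per list. Fold here is 2 raised to the score. Its 95% interval covers counting error only and rests on the constant that gives the simplest ratios. The counts are known only in lowest terms, from 31 to 1514 ChIP reads and from 19 to 629 input reads for the member regions of the replicates, so that the intervals are at their widest and the full depth of the libraries is unknown. Since the constant differs between lists, no change is read from folds of different lists. Regions on one locus in different lists were joined, which gave 8 loci in the bithorax complex and 17 in the Antennapedia complex.

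Each of the 3 bithorax genes had at least 1 region in both replicates inside its span. For Ubx (12482000 to 12561000), the region lay at the high-coordinate end, the end at which transcription of Ubx and abd-A is known to start. It ran from 12559014 to 12561342 in replicate 1, at 3.21-fold (95% counting interval 2.75 to 3.75), and from 12559019 to 12561420 in replicate 2, at 4.11-fold (3.54 to 4.78). The middle of the region was 0.82 kb inside the span's end in replicate 1 and 0.78 kb in replicate 2. The 76.5 kb from 12482470 to 12559013 held no region of either replicate. The low end of the span was overlapped by 406 bp (replicate 1) and 469 bp (replicate 2) of the edge region described below.

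For abd-A (12632000 to 12656000), the region shared by both replicates was again at the high-coordinate end. It stood at 2.35-fold (2.02 to 2.72) in replicate 1, 12654332 to 12656743, and at 2.73-fold (2.09 to 3.55) in replicate 2, 12654290 to 12656721. Its middle was 0.46 kb and 0.50 kb inside the end of the span. A weaker region near the low end of the span, 12634726 to 12636914, was listed in replicate 1 at 1.48-fold (1.24 to 1.77) and in the replicate set, but not in replicate 2. The replicate set alone listed another locus in abd-A, 12647570 to 12648886, at 1.29-fold (1.10 to 1.52).

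For Abd-B (12752000 to 12798000), which is known to have several alternative start sites, the shared region lay in the low-coordinate part of the span, with its middle 7.33 kb and 7.91 kb from the low end in replicates 1 and 2. It was 2.28-fold (1.38 to 3.74) from 12757663 to 12760996 in replicate 1 and 3.00-fold (2.59 to 3.49) from 12758836 to 12760986 in replicate 2. Its high edge differed by 10 bp between the replicates, and its low edge by 1173 bp. A weaker region from 12769480 to 12770843 was listed at 1.31-fold (1.02 to 1.68) in replicate 1 and also in the replicate set, but not in replicate 2. The high-coordinate end of Abd-B had no region in any list, and the stretch from 12770877 to 12806727 was empty.

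Outside the gene spans, 1 locus of the bithorax complex was found in both replicates, between abd-A and Abd-B. It ran from 12672359 to 12674362 at 1.54-fold (0.87 to 2.73) in replicate 1 and from 12672366 to 12674331 at 1.32-fold (0.87 to 2.02) in replicate 2, intervals that include 1. Both intervals rest on ratios in lowest terms, 31 over 19 and 45 over 41, and so are at their widest. In the replicate set the locus stood at 1.41-fold (1.23 to 1.61), from 506 over 381. In the RefSeq annotation of the Release 6 assembly, used here for the order of genes only, the 6 genes between abd-A and Abd-B are MSAmiP, the long noncoding RNAs lncRNA:iab8, lncRNA:iab4 and lncRNA:CR43617, and the microRNAs mir-iab-4 and mir-iab-8, both known to repress Ubx. Which of them this region touches was not analysed here. Between the spans of Ubx and abd-A (71 kb), where RefSeq lists lncRNA:bxd, Glut3 and CG31275 among 7 genes, the replicates covered 0.48% and 0.59%, all of it the overhang of the Ubx region.

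The strongest region of the bithorax window lay just inside its low edge, across the low end of the Ubx span and mostly outside Ubx. It ran from 12480239 to 12482406 in replicate 1 at 3.88-fold (2.89 to 5.21) and from 12480230 to 12482469 in replicate 2 at 5.79-fold (5.13 to 6.54). Of its bases, 18.7% in replicate 1 and 20.9% in replicate 2 fell inside the Ubx span. Just below the window the next region, 6.36 kb wide at 2.54-fold in replicate 1 and 6.80 kb wide at 2.85-fold in replicate 2, ended 999 bp and 969 bp from the edge. Above the window the nearest regions began 6.77 kb and 6.73 kb away. The low edge of the window thus falls between closely spaced regions.

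The order of the levels in the bithorax complex was nearly the same in both replicates, with 9 of 10 pairs of shared loci in the same order. Within a list the constant cancels, so loci were compared as differences of scores. The Ubx region exceeded the abd-A region by 0.45 on the log2 scale (95% counting interval 0.14 to 0.76) in replicate 1 and by 0.59 (0.16 to 1.03) in replicate 2. The Abd-B and abd-A regions were not told apart in either replicate by these intervals, which are at their widest. Abd-B minus abd-A was −0.04 (−0.79 to 0.70) and 0.14 (−0.30 to 0.58). The edge locus minus the Ubx region was 0.27 (−0.21 to 0.75) in replicate 1 and 0.49 (0.21 to 0.77) in replicate 2. Ubx minus Abd-B was 0.50 (−0.26 to 1.25) and 0.45 (0.15 to 0.76), and abd-A minus the locus between abd-A and Abd-B was 0.61 (−0.25 to 1.46) and 1.04 (0.32 to 1.76). These last 3 differences passed their intervals in replicate 2 and not in replicate 1. The interval widths depend on counts in lowest terms, for the Abd-B region 53 over 22 in replicate 1 and 596 over 239 in replicate 2. No difference between the replicates is therefore read from this.

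Per base, the spans of the 3 genes were little covered. The Ubx span had 3.03% and 3.10% in replicates 1 and 2, on average 3.07% ± 0.05 (SD, n = 2), including its overlap with the edge region. The abd-A span had 16.1% and 7.13%, and the Abd-B span 10.2% and 4.68%, where replicate 1 had a further region in each. In bases common to both replicates these became 3.02% for Ubx, 6.95% for abd-A and 4.68% for Abd-B, and 2.80% for the 96 kb between abd-A and Abd-B.

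**Figure D2:**
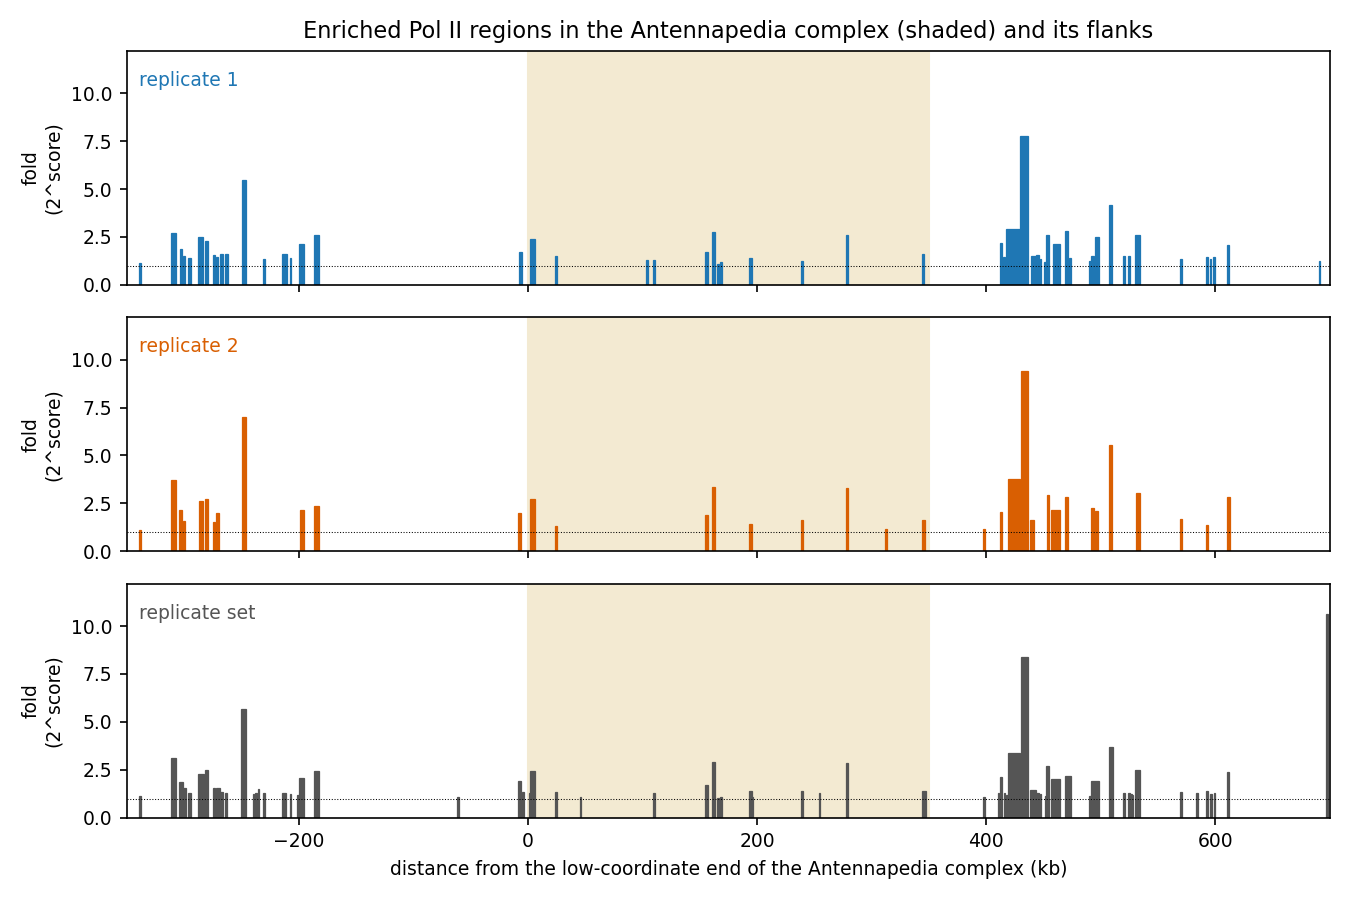
Enriched regions of replicate 1, replicate 2 and the replicate set (top to bottom) across the Antennapedia complex (shaded) and the 350 kb on each side, with kb from the low-coordinate end of the complex on the x axis and the fold (2 raised to the score) on a linear y axis from 0. The bars inside the window reach at most 2.78-fold in replicate 1 and 3.34-fold in replicate 2, and a dense group follows in the upper flank.

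The Antennapedia complex had more loci, and its highest and median scores were lower in each list. Its highest locus, at 2.78-fold and 3.34-fold in replicates 1 and 2, still stood above the abd-A and Abd-B regions, with overlapping counting intervals. Release 5 positions of its 5 homeotic genes were not used here, so its loci are given by position. RefSeq (Release 6) gives the order lab, pb, Dfd, Scr, Antp from low to high coordinates, with Edg84A and 7 genes of the Ccp84 cuticle protein family between lab and pb. Between pb and Dfd lie zen2, zen and bcd, the gene of the anterior determinant of the egg, and between Scr and Antp lies ftz, a pair-rule segmentation gene. Between Dfd and Scr the annotation lists no protein-coding gene, but mir-10, 4 tRNA genes and 2 genes of the RNA of the signal recognition particle, both of which are known to be transcribed by RNA polymerase III.

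Of the 17 loci, 8 were found in both replicates, 4 in replicate 1 but not replicate 2, 1 in replicate 2 but not replicate 1, and 4 in the replicate set only. The highest ran from 2640726 to 2643102 at 2.78-fold (2.44 to 3.18) in replicate 1 and from 2640872 to 2643116 at 3.34-fold (2.92 to 3.83) in replicate 2. Next came 2757420 to 2759556 in replicate 1 at 2.58-fold (2.11 to 3.15) and 2757426 to 2759566 in replicate 2 at 3.28-fold (2.68 to 4.02). The widest region ran from 2481614 to 2486290 in replicate 1, at 2.41-fold (2.19 to 2.65), and from 2481884 to 2486262 in replicate 2, at 2.72-fold (2.47 to 2.98). Neighbours among these 3 were not told apart in either replicate by the counting intervals, which are at their widest. The step from the third to the fourth was 0.48 (0.15 to 0.81) on the log2 scale in replicate 1. In replicate 2 the step was 0.50 (0.25 to 0.75), so it passed counting error in both.

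The fourth locus lay just below the highest one, from 2634657 to 2636948 at 1.73-fold (1.40 to 2.13) in replicate 1 and from 2634619 to 2636931 at 1.92-fold (1.66 to 2.22) in replicate 2. Just above the highest one, replicate 1 and the replicate set listed 2 further loci between 2645228 and 2649280, at 1.09-fold (0.92 to 1.29) and 1.19-fold (1.01 to 1.39) in replicate 1, and replicate 2 listed none. This was the densest group of loci in the complex. The last locus of the window, 2823869 to 2825973 in replicate 1 and 2823926 to 2826313 in replicate 2, stood at 1.60-fold (1.21 to 2.10) and 1.65-fold (1.42 to 1.92). Beyond the window the nearest regions lay 5.18 kb (replicate 1) and 6.25 kb (replicate 2) below its low end, and 61.7 kb and 47.3 kb above its high end.

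The weaker shared loci of the Antennapedia complex were close to the counting limit. The locus from 2673152 to 2675195 was 1.43-fold (1.22 to 1.67) in replicate 1 and 1.45-fold (1.22 to 1.73) in replicate 2, that from 2718138 to 2720196 was 1.27-fold (1.01 to 1.61) and 1.63-fold (1.21 to 2.18), and that from 2503155 to 2505234 was 1.49-fold (1.11 to 2.00) and 1.31-fold (1.10 to 1.56). From the fourth locus down, no neighbours in the order of levels were told apart by the counting intervals in either replicate. A region from 2791537 to 2793452 was listed in replicate 2 only, at 1.16-fold (0.90 to 1.51), and the replicate set listed nearly the same bases as depleted, at 0.98-fold (0.86 to 1.12).

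**Figure D3:**
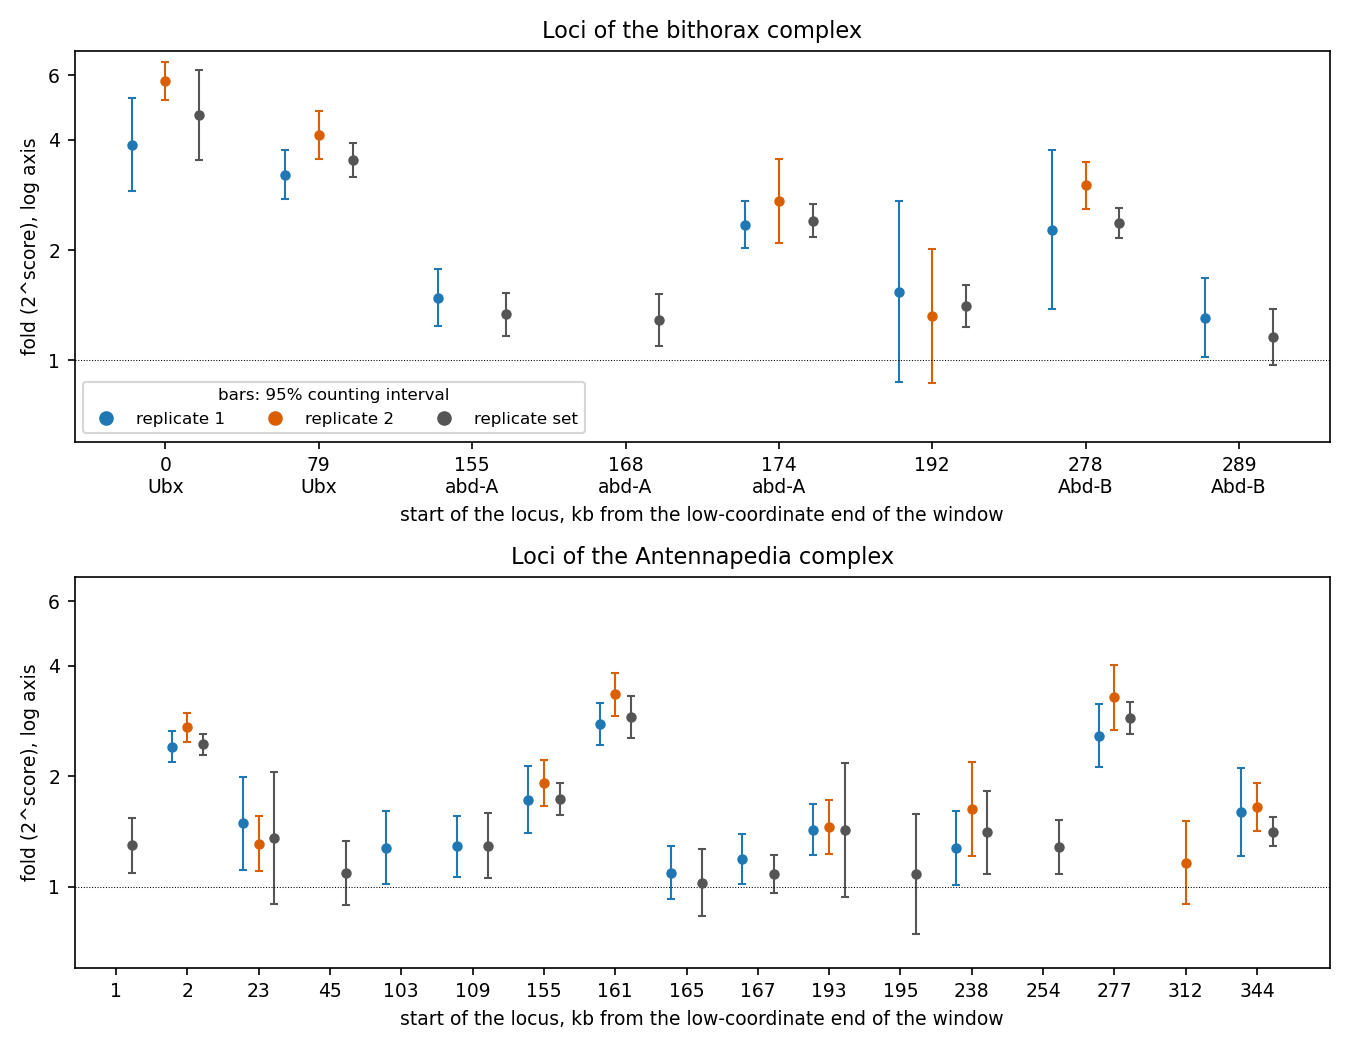
Fold (2 raised to the score, log axis) with its 95% counting interval for every locus of the bithorax complex (top) and the Antennapedia complex (bottom), by list; a list with no region at a locus has no point, and gene names mark loci that overlap a gene's span, the leftmost Ubx locus mostly lying outside it. In the bithorax complex the edge locus and the Ubx locus stand highest, and in the Antennapedia complex 3 loci are at 2.41-fold or more in replicate 1 and at 2.72-fold or more in replicate 2.

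Long empty stretches made up most of both windows, though a flank of each complex held a longer one. In the bithorax complex, outside the regions of both replicates, the longest ran for 83.3 kb from 12674363 to 12757662, from beyond abd-A into the start of the Abd-B span. The next were the 76.5 kb inside Ubx and 73.3 kb from 12561421 to 12634725, between Ubx and the low end of abd-A. Among the 1653 such stretches of 3R these ranked 45, 55 and 59 by length. Outside all 3 lists together the same stretches measured 83.3, 76.5 and 73.3 kb. In the Antennapedia complex the longest ran for 77.8 kb from 2505235 to 2583035 and ranked 52. It was 129 kb long in replicate 2 alone, which lacks the regions that end it, and the replicate set listed a region at 1.09-fold (0.89 to 1.33) inside it. The next were 43.7 kb from 2590966 to 2634618 and 42.9 kb from 2675196 to 2718137. Empty stretches of 20 kb or more took up 82.0% of the bithorax complex, 83.3% of the Antennapedia complex and 55.7% of all of 3R. In the flanks of these complexes they took up 54.9% and 57.2%. Above the bithorax complex, no list had a region from 498.7 to 592.6 kb, counted from its low end. Below the Antennapedia complex, neither replicate had one from −182.6 to −8.3 kb, counted likewise. The replicate set listed a region there at 1.09-fold (0.68 to 1.75).

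Counted in bins of 10 kb, 25 of 32 bins (78.1%) of the bithorax complex held no base covered in both replicates, as did 26 of 35 (74.3%) of the Antennapedia complex. Over all of 3R this share was 54.6% of 2790 bins. The flanks of the bithorax complex had 15 of 35 such bins below it and 18 of 35 above it. Those of the Antennapedia complex had 25 of 35 below it, close to the complex itself, and 21 of 35 above it.

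Compared with the 350 kb on each side, the bithorax complex was covered less in every list. It had 4.94% in replicate 1 and 3.50% in replicate 2, against 20.0% and 20.5% in its flanks together, a difference of −16.0 ± 1.4 percentage points (SD, n = 2). The flank below had 17.1% and 16.3%, and the flank above 22.8% and 24.7%, so that the complex was lower than each side in each replicate. With flanks of only 100 kb, which had 28.7% and 28.1%, the difference in bases common to both replicates was −21.7 points, against −14.3 with 350 kb. In the higher-scoring 50% of each list it was −5.40 points.

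The Antennapedia complex was also lower than its flanks, by less. It had 7.34% in replicate 1 and 6.12% in replicate 2, against 17.4% and 12.4% in its flanks, a difference of −8.15 ± 2.63 percentage points (SD, n = 2). The flank below had 14.2% and 9.61%, and the flank above 20.5% and 15.2%. In bases common to both replicates the difference was −6.20 points. With 2 replicates an exact two-sided sign-flip permutation test cannot give a p below 0.5, so no test was made of these differences and the value of each replicate is given.

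**Figure D4:**
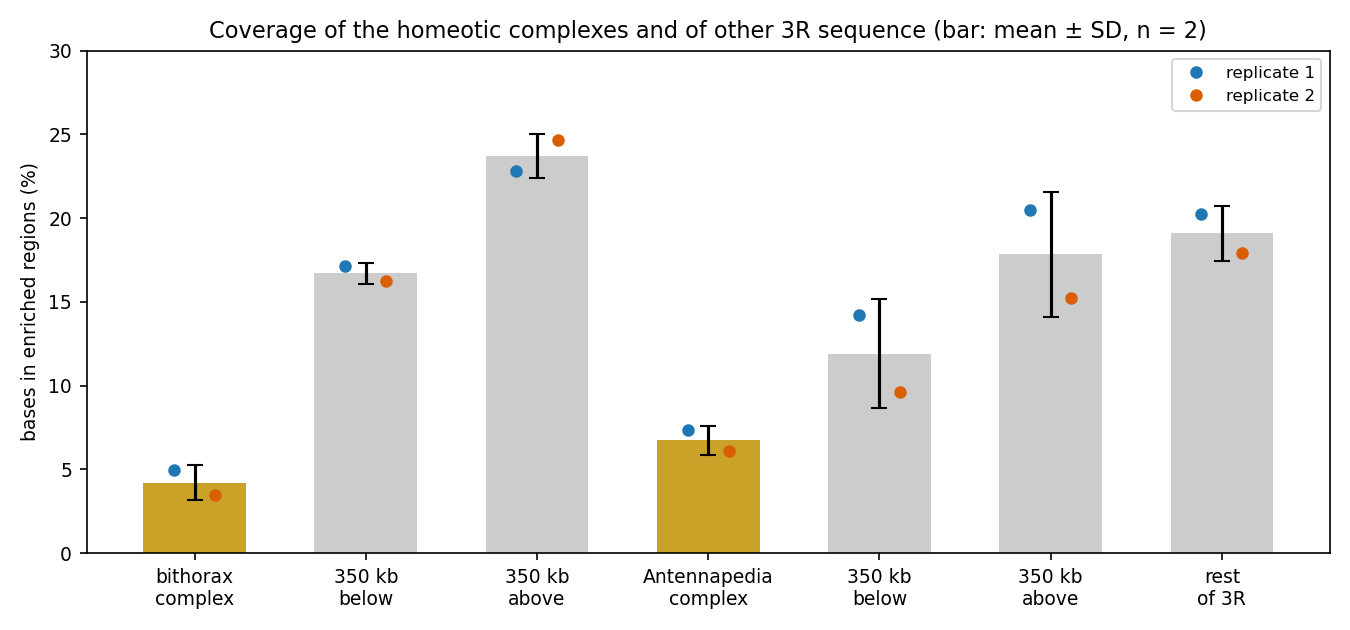
Percent of bases inside enriched regions in the bithorax complex, the Antennapedia complex, the 350 kb below and above each, and the rest of 3R; bars are the mean of the 2 ChIP replicates, error bars the SD (n = 2) and points the replicates. Both complexes lie below each of their flanks in each replicate.

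The widest region of the bithorax complex measured 3.33 kb in replicate 1 and 2.43 kb in replicate 2, against 10.5 and 13.8 kb in its flanks. That of the Antennapedia complex measured 4.68 and 4.38 kb, against 12.4 and 10.8 kb in the flank above it and 4.47 and 4.09 kb in the flank below it. The highest score of the Antennapedia complex was 1.48 and 1.74 in these replicates, against 2.96 and 3.23 in its flanks. That of the bithorax complex was 1.96 and 2.53, against 2.62 and 3.04 in the flank above it and 2.18 and 2.38 in the flank below it. In replicate 2 the complex thus stood above its lower flank. Median scores in the bithorax complex were 1.19 and 1.59, against 0.69 and 0.87 in its flanks. Those of the Antennapedia complex were 0.54 and 0.72, against 0.66 and 1.12. In the replicate set the medians of both complexes were higher than in their flanks, at 0.87 against 0.72 and 0.44 against 0.41. The strongest in the replicate set above the bithorax complex, 12878654 to 12881146, stood at 6.16-fold (4.31 to 8.79) in replicate 1 and 8.23-fold (7.06 to 9.59) in replicate 2, and the strongest of that list below it, 12449970 to 12452334, at 3.93-fold (3.43 to 4.50) and 4.58-fold (3.67 to 5.73), though another region of the lower flank was higher in each replicate, at 4.52-fold and 5.22-fold. Below the Antennapedia complex the strongest was 2229592 to 2233864, at 5.49-fold (5.02 to 6.01) and 7.01-fold (6.43 to 7.65). Above it the highest score of the replicate set, 3176872 to 3178040 at 10.6-fold, rests on few reads in lowest terms (1.36 to 82.9), and neither replicate listed a region there.

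Set among all windows of the same length on 3R, both complexes were near the low end. Windows were stepped by 10 kb and kept clear of the complexes; they overlap, and their ranks are given as a description. Of 2630 windows of 320 kb, 18 (0.68%) were covered at most as much as the bithorax complex in bases common to both replicates, where the median window had 15.0%. In replicate 1 the share was 0.68% and in replicate 2 0.38%. In the replicate set it was 0.23%, and of 84 windows that do not overlap it was 0%. In the higher-scoring 50% of each list it was 5.40%. The 18 windows fell in 3 stretches, 13630001 to 13990000, 15060001 to 15440000 and 23780001 to 24150000. The windows nearest to the complex in coverage were 23840001 to 24160000 at 3.44%, 13630001 to 13950000 at 3.36% and 2990001 to 3310000 at 3.59%.

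Of 2621 windows of 350 kb, 93 (3.55%) were covered at most as much as the Antennapedia complex, where the median window had 14.8%. The share was 3.74% in replicate 1 and 3.32% in replicate 2. It depended on the edge of the window: with both ends moved 10 kb inwards, an alternative chosen after seeing the data that leaves out the widest region and the last locus, 2 regions in each replicate, it was 0.95%. The 93 windows fell in 9 stretches of 3R, 1 of which, 2950001 to 3340000, begins within the upper flank. Another, 12970001 to 13360000, begins within the upper flank of the bithorax complex. The windows nearest to the Antennapedia complex in coverage were 2950001 to 3300000 at 5.33%, 11270001 to 11620000 at 5.32% and 7830001 to 8180000 at 5.50%.

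**Figure D5:**
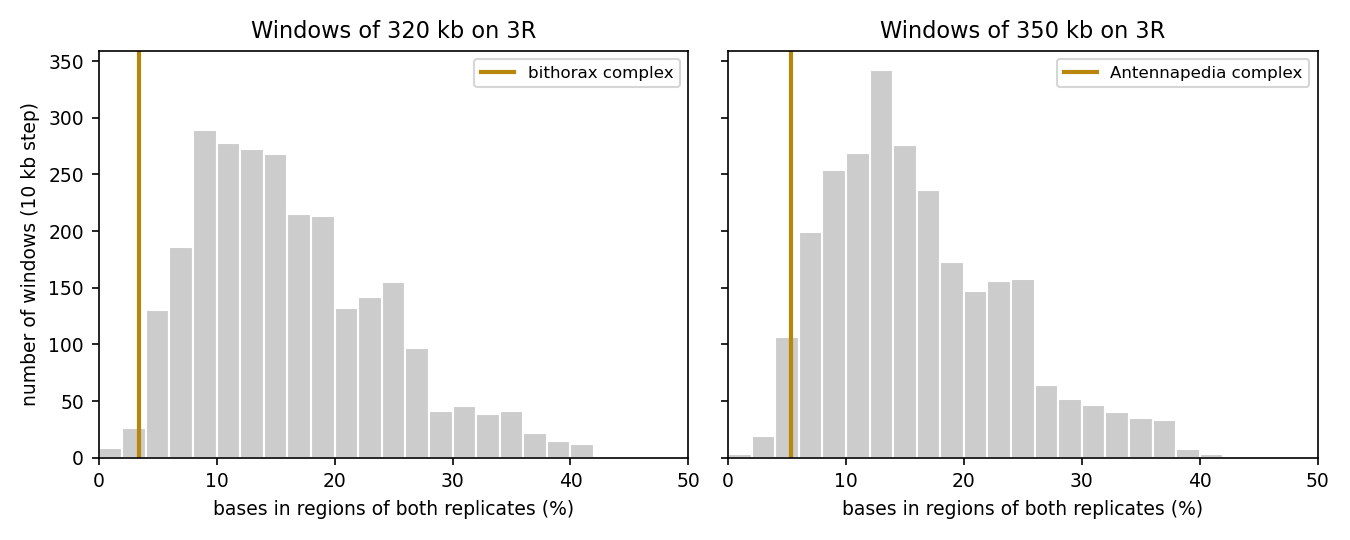
Number of windows of 3R (y axis, 10 kb step) by the percent of their bases inside regions of both replicates (x axis), for windows as long as the bithorax complex (left) and the Antennapedia complex (right), with a line at the value of the complex. The lines stand at 3.44% and 5.37%, where the median windows have 15.0% and 14.8%.

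Low coverage came with fewer regions, and none of them was broad. The bithorax complex had 21.9 regions per Mb in replicate 1 and 15.6 in replicate 2, and the Antennapedia complex 34.3 and 25.7, against 61.0 and 53.6 on the rest of 3R. Member regions were 1307 to 4677 bp wide in replicate 1 and 1916 to 4379 bp in replicate 2. The narrowest regions of all were 1301 bp in the list of each replicate. None reached 5 kb in any list, a width reached by 13.7% of 3R regions in replicate 1 and 12.7% in replicate 2. The flank below the Antennapedia complex, with 18 and 12 regions in these replicates, likewise had none of that width in any list. Median widths of members were 2105 and 2196 bp in these replicates, against 2275 and 2270 bp on the rest of 3R.

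The scores of the member regions ran from 0.13 to 1.96 in replicate 1 and from 0.22 to 2.53 in replicate 2, where the highest scores of 3R were 4.11 and 4.71. The strongest ranked 141 of 1679 on 3R in replicate 1 and 91 of 1473 in replicate 2, in both the locus at the low edge of the bithorax window. The Ubx region ranked 244 and 224, the abd-A region 482 and 475, the Abd-B region 503 and 392, and the highest Antennapedia locus 339 and 327. The median score of all members was 0.62 in replicate 1 against 0.75 on the rest of 3R, and 1.19 in replicate 2 against 0.98, so the difference had opposite signs, −0.12 and 0.21. Among regions found in both replicates the members' medians were 1.19 and 1.44, against 0.89 and 1.07 on the rest of 3R.

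How far the member regions rest on a single replicate was read from their overlap. Of the 19 member regions of replicate 1, 13 (68.4%) overlapped a region of replicate 2 by at least 1 bp, where 82.9% of all replicate 1 regions on 3R did. Of the 14 of replicate 2, 13 (92.9%) overlapped replicate 1, where 93.8% of 3R regions did. The same 13 loci overlapped by at least 50% both ways, against 72.3% and 82.4% of 3R regions in these directions. At these loci the starts differed between the replicates by a median of 44 bp (5 to 1173) and the ends by a median of 31 bp (10 to 340). The 7 loci of a single replicate had scores of 0.13 to 0.57. The 95% counting interval lay above 1-fold in 17 of the 19 members of replicate 1, 12 of the 14 of replicate 2 and 16 of the 23 of the replicate set, where over 3R it did so in 88.6%, 88.1% and 84.5%.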

How the data were processed

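Pol II ChIP-seq of nuclei from larvae of instar 3 was deposited as 3 lists of regions (ChIP replicate 1, ChIP replicate 2 and the replicate set), on FlyBase release 5 per the file headers. The submitters' processing notes name Bowtie 0.12.7, a short-read aligner. No source used here names the caller or its threshold. The authors deposited 1 log2 score per region. Each of the 7524, 6489 and 8320 scores was log2 of a whole-number ratio (denominators up to 20000, relative tolerance 1e-11) plus a constant of −0.08, 0.27 and 0.09 in these lists. The constant kept was the one that gave the simplest ratios. It is fixed only up to this choice, on which the counts and their intervals rest. Windows and gene spans are rounded positions given with the choice of members. Coverage, overlaps and stretches were computed with Python 3.11.15, numpy 2.4.6 and pandas 2.3.3, tested on simulated data, and overlaps were checked with bedtools 2.31.1. Members, lists and measures were chosen with earlier results of these data known. Named loci were those overlapping a gene span, the 5 highest and 3 widest of each complex, and the highest of each flank; shared loci outside this rule, single-replicate loci beside them and the depleted region were added after their values were seen. The labels do not say whether the replicates are separate collections, so their spread may be technical. All 8 gene symbols matched RefSeq, whose coordinates (Release 6) were not used.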

Additional observations from a re-analysis of the deposited data

How the results depend on the processing

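Of 26 alternative values of coverage, 13 moved by more than the spread between the replicates. Some of these were fixed in advance. Bases common to both replicates cannot exceed either replicate, so keeping only the replicate with more coverage always counted as moved. In the replicate set list, coverage was 5.38% in the bithorax complex, 8.88% in the Antennapedia complex and 8.22% in the spans of Ubx, abd-A and Abd-B together (4.17% in bases common to both replicates). The differences from the flanks were −17.6 and −11.8 points there, and 0.23% of equal windows were covered at most as much as the bithorax complex. In the higher-scoring 50% of each list the Antennapedia complex had 2.50%, the bithorax difference from its flanks was −5.40 points, the shares of equal windows were 5.40% and 2.86%, and the longest empty stretches were 101 and 148 kb. Flanks of 100 kb gave −21.7 points for the bithorax complex. Windows that do not overlap gave 0% and 4%. With window ends moved 10 kb inwards, chosen after seeing the data, the Antennapedia complex had 3.75% and 0.95% of windows. With 1 replicate left out, coverage was 3.50% to 4.94% in the bithorax complex, 6.12% to 7.34% in the Antennapedia complex and 4.24% to 7.35% in the 3 gene spans; the differences from the flanks were −17.0 to −15.0 and −10.0 to −6.29 points; the shares of windows were 0.38% to 0.68% and 3.32% to 3.74%; and the longest empty stretches were 83.3 to 92.9 kb and 77.9 to 129 kb. For the members of both complexes together, the median score minus the rest of 3R was a mean of 0.04 over the replicates. It reversed to −0.0786 in the replicate set list and was −0.124 to 0.212 with 1 replicate left out. Among regions found in both replicates it was 0.333, and the cause was not tested. Of 67 alternative values, 34 stayed within the spread of the replicates, 31 moved and 2 reversed. No paired analysis was possible because only the ChIP samples have lists of regions, and these 2 samples are replicates of 1 group.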

Other observations

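The replicate set list added weak loci that neither replicate listed, 1 in the bithorax complex and 4 in the Antennapedia complex. That of the bithorax complex is the locus inside abd-A at 1.29-fold. Those of the Antennapedia complex were 2480544 to 2481572 at 1.30-fold (95% counting interval 1.09 to 1.54), 2525168 to 2526514 at 1.09-fold (0.89 to 1.33), 2675238 to 2676484 at 1.08-fold (0.74 to 1.57) and 2733682 to 2734706 at 1.28-fold (1.08 to 1.52). Conversely, replicate 1 listed 2583036 to 2584342 at 1.28-fold (1.01 to 1.61), which the replicate set did not list as enriched.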
